A study of Mus musculus with 6 samples.

Results

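Potassium channels other than inward rectifiers were followed in islets of Langerhans from mice labelled as lacking Ppard in the pancreas and from their littermate controls. The members were all genes whose platform symbol starts with Kcn but not with Kcnj, each read on its brightest probe set by the mean of the 6 arrays. The rule gave 69 of the 18193 genes with a probe set of their own on the array, read by 136 probe sets in all, and 38 of the 69 had more than 1 probe set. By name they comprised 22 pore-forming voltage-gated genes, 9 silent voltage-gated modifiers, 8 calcium-activated and related (Slo) genes, 12 tandem-pore genes, 15 accessory subunit genes and 3 noncoding transcripts. Some channel genes of islets were not analysed here.

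Each group had 3 arrays, and every array stood for its own mouse, 8 weeks old and of mixed SV 129/C57BL/6 background. Mice labelled knockout were Pdx1Cre;PPARbetafl/fl, with a Cre recombinase under the Pdx1 promoter, whose activity in pancreatic progenitors is not restricted to beta cells. Controls were PPARbetafl/fl without Cre, so both groups carried the floxed alleles and no array came from a Cre-positive mouse with intact alleles: deletion and Cre cannot be told apart for any difference here. The targeted Ppard transcript was read on its brightest probe set only, and showed no fall there. Controls 1 to 3 read 7.75, 7.56 and 7.12 (log2) and knockouts 1 to 3 read 8.01, 8.20 and 7.70 (difference 0.49 ± 0.20, SE, limma adjusted p = 0.377). The deleted exon is not given in the sources used here, and a probe set outside it checks nothing about the deletion.

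Whole islets were isolated per the protocol, although the labels give beta-cells, and the arrays carried strong signal for beta, alpha and delta cell hormones. Acinar signal differed between arrays: controls 1 to 3 had means of 6.63, 10.73 and 10.91 over 24 acinar markers, and knockouts 1 to 3 had 8.35, 5.58 and 5.66. All 7 genes listed for delta and PP cells had lower means in the arrays labelled knockout, against 49.6% of all genes. Their list means were 10.42 to 10.63 in controls and 9.87 to 9.93 in knockouts. Ghsr (-1.17, limma adjusted p = 0.0097) and Rbp4 (-0.73, adjusted p = 0.027) were called, while Ghrl (-0.14) overlapped between groups. All 5 alpha cell markers were lower as well (10.06 to 10.24 against 9.50 to 9.79). Of 11 beta cell markers 7 had lower means and 4 higher, and 1 was called, Slc30a8 (-0.82, adjusted p = 0.0394). Of 10 immune markers measured 7 had higher means in the arrays labelled knockout and 1 was called, Laptm5, a lysosomal protein of blood cells (1.34, adjusted p = 0.00425). The immune list means were 5.62 to 5.78 in controls and 5.97 to 6.15 in knockouts, without overlap. In whole islets, fewer cells of a type and less RNA per cell cannot be told apart.

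Potassium channels set the resting potential of a cell and end its action potentials. In beta cells, closure of the ATP-sensitive inward rectifier starts electrical activity, and the channels described here shape what follows: voltage-gated channels repolarise each spike, calcium-activated channels respond to the calcium that enters, and tandem-pore channels carry background current. Pore-forming subunits assemble as tetramers, or as dimers in the tandem-pore family. Silent modifiers and accessory subunits carry no potassium current alone and alter the gating or traffic of partner channels.

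A call was an adjusted p under 0.05 in limma over all 45037 probe sets, and each difference is the knockout mean minus the control mean in log2 units. On the brightest probe set, 2 of the 69 members rose (Kcna2 and Kcne4), 1 fell (Kcnh1) and 66 did not pass. Over all genes 1.1% were called, 0.852% higher and 0.247% lower. Kcnk10 joined the rises through its dimmer probe set. Counting any probe set, 4 of the 69 members had a call (5.8%), against 1.4% of all genes. An unadjusted p under 0.05 was found for 13 members (18.8%), against 14% of all genes. The median difference of the members was -0.078, against 0.0020 over all genes.

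The promoter sequences of these 4 genes are shown because they carry the calls. Each is the 250 bases before a RefSeq start site (GRCm38.p6), 5′ to 3′ on the gene's strand. Capitals mark matches to AGGTCA, the half-site of the response element that PPAR receptors bind.
Kcna2 (chr3:107101317-107101566, plus strand): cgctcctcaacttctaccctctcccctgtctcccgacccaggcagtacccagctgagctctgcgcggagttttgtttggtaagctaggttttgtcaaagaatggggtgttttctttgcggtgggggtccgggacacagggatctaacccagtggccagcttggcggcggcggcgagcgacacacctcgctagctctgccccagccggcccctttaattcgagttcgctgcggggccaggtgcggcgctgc
Kcne4 (chr1:78816661-78816910, plus strand): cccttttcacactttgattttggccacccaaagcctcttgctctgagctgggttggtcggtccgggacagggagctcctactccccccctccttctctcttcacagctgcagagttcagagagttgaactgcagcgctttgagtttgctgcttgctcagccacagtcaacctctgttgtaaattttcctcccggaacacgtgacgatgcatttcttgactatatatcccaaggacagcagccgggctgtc
Kcnk10 start 1 (chr12:98578214-98578463, minus strand): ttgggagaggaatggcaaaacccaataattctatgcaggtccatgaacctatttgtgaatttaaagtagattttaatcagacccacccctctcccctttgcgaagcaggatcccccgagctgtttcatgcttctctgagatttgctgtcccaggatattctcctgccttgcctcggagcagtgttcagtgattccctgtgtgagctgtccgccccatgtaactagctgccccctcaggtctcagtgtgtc
Kcnk10 start 2 (chr12:98575128-98575377, minus strand): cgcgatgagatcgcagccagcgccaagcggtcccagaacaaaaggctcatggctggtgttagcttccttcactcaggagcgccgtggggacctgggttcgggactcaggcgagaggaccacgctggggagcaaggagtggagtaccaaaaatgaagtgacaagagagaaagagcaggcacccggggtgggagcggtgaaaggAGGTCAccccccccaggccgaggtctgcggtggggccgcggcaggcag
Kcnh1 (chr1:192190527-192190776, plus strand): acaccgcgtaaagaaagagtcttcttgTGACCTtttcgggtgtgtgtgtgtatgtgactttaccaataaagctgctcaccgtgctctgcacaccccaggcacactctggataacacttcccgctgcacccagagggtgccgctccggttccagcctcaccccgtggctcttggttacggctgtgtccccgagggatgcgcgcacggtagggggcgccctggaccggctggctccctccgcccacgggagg
The half-site, searched on both strands, was present before the start of Kcnh1 and before the second Kcnk10 start, and its letters were not in the other 3 windows. It occurs in 14% of all 32851 promoters of this length in the table and in 4 of the 72 promoters of the 51 members listed there. The full response element, 2 half-sites in direct repeat with any 1 base between them, was in 0 of those 72 and in 0.0335% of all promoters. The STAT5 motif TTCNNNGAA was in 5 of the 72 and in 7.02% of all, and in none of the 5 windows shown. A match is a description of letters, and no binding was measured.

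Kcna2 encodes a delayed-rectifier voltage-gated channel of the Shaker type, best known from axons. Its brightest probe set read 4.86, 4.36 and 4.24 in the 3 controls and 6.78, 7.04 and 7.25 in the 3 knockouts. All 3 knockout values lay well above all 3 control values. The rise was 2.54 ± 0.20 (SE), or 5.81-fold (adjusted p = 0.00349), from 4.48 ± 0.33 to 7.02 ± 0.24 (SD, n = 3 each). It took the gene from percentile 37.5 of all probe sets in controls to 67.4, so the control level was dim and the fold depends on the background of the arrays. Its second probe set rose by 2.65 ± 0.40 (adjusted p = 0.0392) and the third by 1.88 ± 0.24 (adjusted p = 0.0206), while the fourth, near the bottom of the range at percentile 11.1 in controls, differed by -0.034 (adjusted p = 0.953). The call on the brightest probe set was kept whichever array was left out, with an adjusted p of at most 0.0262. The second probe set kept its call in 1 of those 6 fits, without control 1, and the third in 2, without control 1 or knockout 1 (adjusted p otherwise up to 0.163 and 0.106). With the acinar level as a covariate the 3 differences were 2.15 (adjusted p = 0.0164), 1.89 (adjusted p = 0.125) and 1.41 (adjusted p = 0.0476). Against control 1 alone, the control with least acinar signal, the first was 2.17 (adjusted p = 0.0694) and the second 1.76 (adjusted p = 0.114), and the third was not called either (adjusted p = 0.182).

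**Figure D1:**
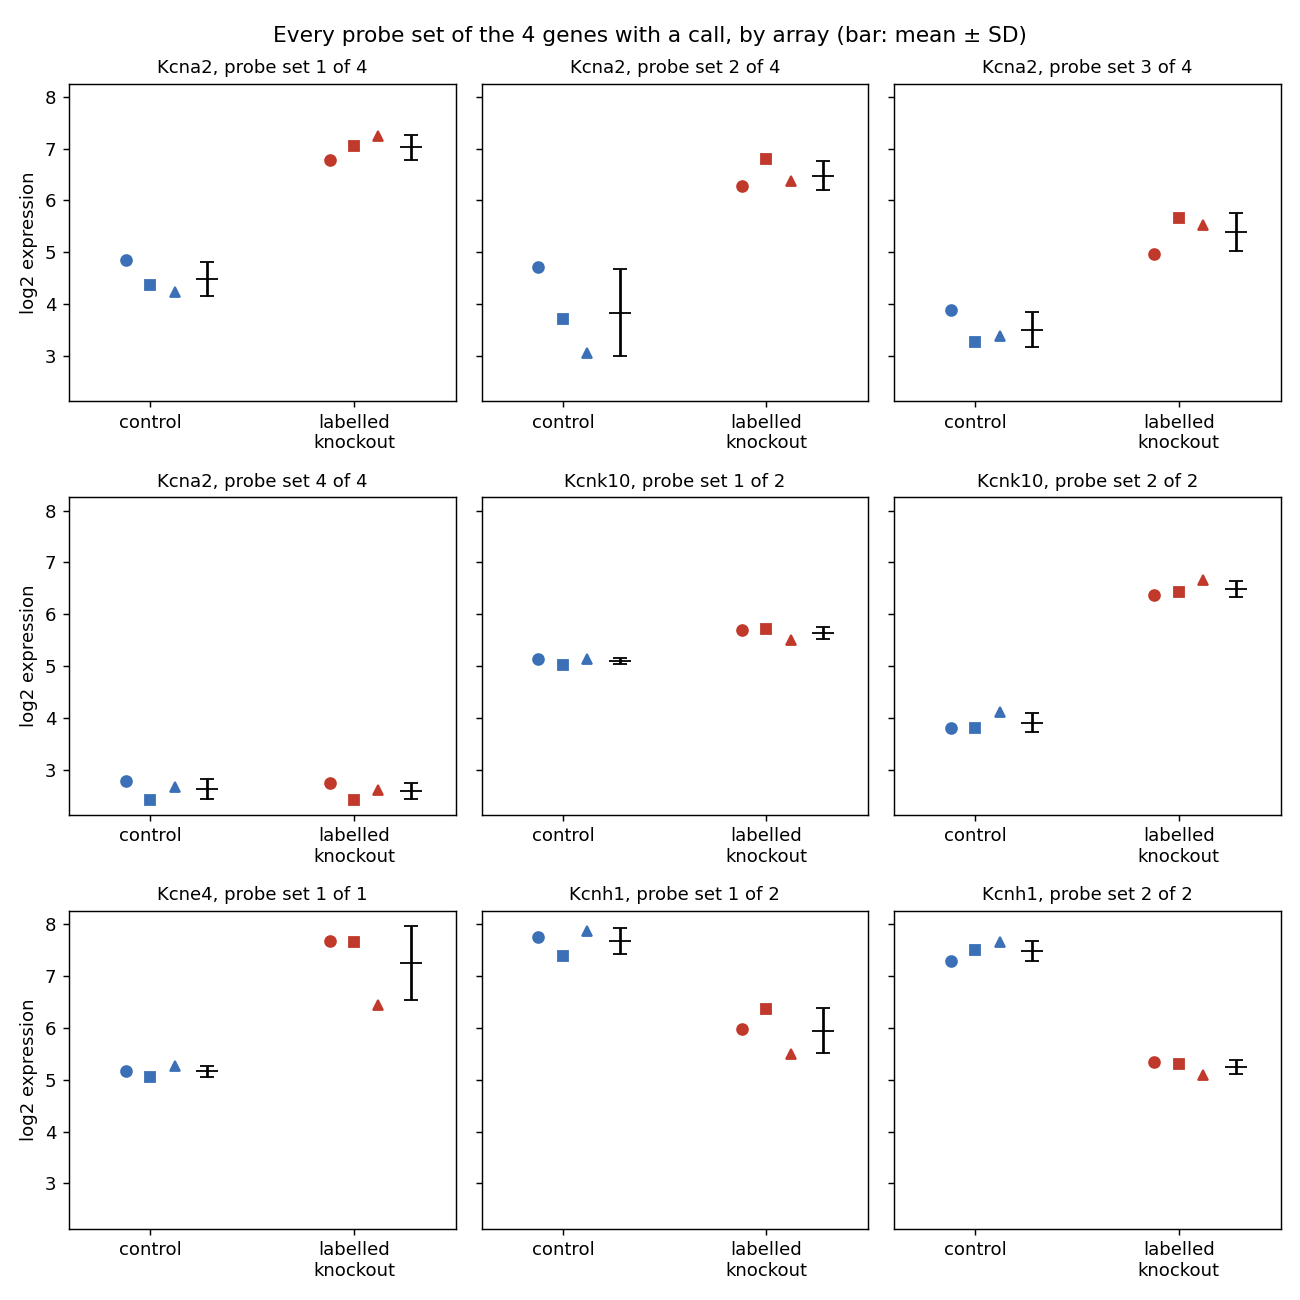
Log2 expression (vertical axis) on each array for every probe set of Kcna2, Kcnk10, Kcne4 and Kcnh1, controls in blue and arrays labelled knockout in red, with circles, squares and triangles for arrays 1, 2 and 3 of a group and bars for mean ± SD of 3 arrays. Control and knockout points are apart in every panel but the fourth Kcna2 probe set, and the second Kcnk10 probe set moves by 2.58 where the first moves by 0.54.

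Among the other Shaker genes, Kcna1, Kcna3, Kcna4, Kcna5, Kcna6 and Kcna7 did not pass, with differences between -0.40 (Kcna5) and 0.071 (Kcna3). Of the cytoplasmic beta subunits that bind Shaker channels, Kcnab2 read 4.34, 3.90 and 4.23 in controls and 4.84, 4.84 and 4.46 in knockouts. Its groups did not overlap, but the difference of 0.55 ± 0.17 did not pass (adjusted p = 0.235), and its other probe set differed by -0.17. Kcnab1 (-0.54 ± 0.22, adjusted p = 0.379) and Kcnab3 (-0.37 ± 0.18, adjusted p = 0.445) had lower means. The other probe set of Kcnab1 differed by -0.088 and that of Kcnab3 by 0.017.

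Kcnk10 encodes a tandem-pore background channel of the TREK group, which opens to membrane stretch and polyunsaturated fatty acids. The brightest of its 2 probe sets read 5.13, 5.03 and 5.13 in controls and 5.69, 5.71 and 5.50 in knockouts, a difference of 0.54 ± 0.11 that did not pass (adjusted p = 0.0952). On the dimmer probe set the values were 3.80, 3.80 and 4.12 in controls against 6.37, 6.42 and 6.65 in knockouts. Neither probe set showed overlap between groups. The dimmer one rose by 2.58 ± 0.14, or 5.97-fold (adjusted p = 9.47e-04), from percentile 29.5 to 61.9. This rise was called in each of the 6 fits without 1 array (adjusted p up to 0.00901), with the acinar covariate (2.61, adjusted p = 0.0189) and with control 1 as the only control (2.68, adjusted p = 0.0304). Per array, the gap between the probe sets shifted by 2.04 between the groups (exact permutation p = 0.1, two-sided, the smallest that 3 against 3 allows). This gap was picked for the test after its values were seen, so the p-value decides nothing about it. RefSeq lists 2 separate starts for the gene, both shown above; which transcript each probe set reads was not determined.

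Kcne4 encodes a single-span accessory subunit that damps several voltage-gated channels. Its single probe set read 5.17, 5.05 and 5.27 in controls and 7.68, 7.66 and 6.44 in knockouts. Every knockout value was above the controls, with knockout 3 nearer to them. The rise was 2.10 ± 0.33 (SE), or 4.28-fold (adjusted p = 0.0459), from 5.16 ± 0.11 to 7.26 ± 0.71 (SD, n = 3 each). The call was lost without any 1 of controls 1, 2 and 3 and knockouts 1 and 2 (adjusted p between 0.0652 and 0.169), with differences of 1.89 to 2.15. Without knockout 3 the rise was 2.51 (adjusted p = 0.00524). The covariate gave 2.29 (adjusted p = 0.189), and control 1 as the only control gave 2.09 (adjusted p = 0.250). Of 10 immune markers, 7 had higher means in the same arrays as Kcna2, Kcnk10 and Kcne4, and 3 had lower means. Over all genes, 49.6% had lower means. Of 10 endothelial markers 8 had higher and 2 lower means, with 0 called. Of 8 duct markers 2 had higher and 6 lower means, and 1 was called, Cftr (3.92, limma adjusted p = 9.37e-04). The part of any of these cell types in the 3 rises was not tested. The related Kcne1, Kcne1l, Kcne2 and Kcne3 did not pass, and the first 3 stood at 0.073, 0.060 and 0.011 above controls.

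Kcnh1, the 1 member that fell, encodes the ether-a-go-go channel, a voltage-gated channel closed by calcium-bound calmodulin. On the brightest probe set the values were 7.76, 7.39 and 7.87 in controls and 5.98, 6.37 and 5.50 in knockouts, so the groups were more than 1 log2 unit apart at their nearest arrays. The fall was -1.72 ± 0.24 (SE), or 3.30-fold (adjusted p = 0.0299), from 7.67 ± 0.25 to 5.95 ± 0.43. Its second probe set read 7.28, 7.51 and 7.66 in controls against 5.34, 5.31 and 5.09, a fall of -2.24 ± 0.14, or 4.71-fold (adjusted p = 0.00149). The call on the brightest probe set was kept, among the fits without 1 array, only without knockout 2 (-1.93, adjusted p = 0.0437). It was lost without control 1, 2 or 3 or without knockout 1 or 3 (adjusted p between 0.0508 and 0.137), with the acinar covariate (-1.77, adjusted p = 0.173) and with control 1 as the only control (-1.81, adjusted p = 0.174). The second probe set kept its call in each fit without 1 array (adjusted p up to 0.0136) and with the covariate (-2.05, adjusted p = 0.0189), and against control 1 alone gave -2.04 (adjusted p = 0.0510). Delta, PP and alpha cell markers were lower in the same arrays. Of 11 beta cell markers 7 were lower, against 49.6% of all genes. The other 4 were higher, among them Pcsk1 (0.54, no overlap, limma adjusted p = 0.152). The part of these cells in the Kcnh1 difference was not tested.

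The other ether-a-go-go relatives were Kcnh2, Kcnh3, Kcnh5, Kcnh7 and Kcnh8. Kcnh5, the closest relative of Kcnh1, differed by -0.39 ± 0.12 with no overlap (adjusted p = 0.231), but at percentile 8.76 in controls it was near the bottom of the range. Kcnh2, the ERG channel, which helps repolarise beta cells, read 8.10, 7.64 and 8.05 in controls and 7.51, 7.47 and 7.78 in knockouts. These groups overlapped (-0.34 ± 0.16, adjusted p = 0.445). Kcnq1, a slow delayed rectifier linked to diabetes risk, read 5.62, 5.53 and 5.15 in controls and 5.09, 5.14 and 4.64 in knockouts. The highest knockout value lay just under the lowest control value, and the difference of -0.48 ± 0.19 did not pass (adjusted p = 0.351). The A-type genes Kcnd2 (-0.21 ± 0.31) and Kcnd3 (-0.27 ± 0.17) and the fast repolarising Kcnc1 (0.022 ± 0.121) did not pass either. The remaining 8 pore-forming genes were Kcnc2, Kcnc4, Kcnd1, Kcnh3, Kcnh7, Kcnh8, Kcnq3 and Kcnq5. On their brightest probe sets they differed by -0.23 (Kcnh7) to 0.015 (Kcnh8), with overlap in each and no call. The second probe set of Kcnc4 (-0.15) and the fourth of Kcnh3 (-0.26) were lower without overlap. With overlap, the second probe sets of Kcnd1, Kcnq3 and Kcnq5 differed by -0.51, 0.21 and 0.22. No probe set of these genes was called. In total 17 of the 22 pore-forming voltage-gated genes had lower means, with a median of -0.15, and 49.6% of all genes did. After centring each array on its median 15 of the 22 and 38.9% of all genes were lower, and the median of all genes moved from 0.0020 to 0.055.

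**Figure D2:**
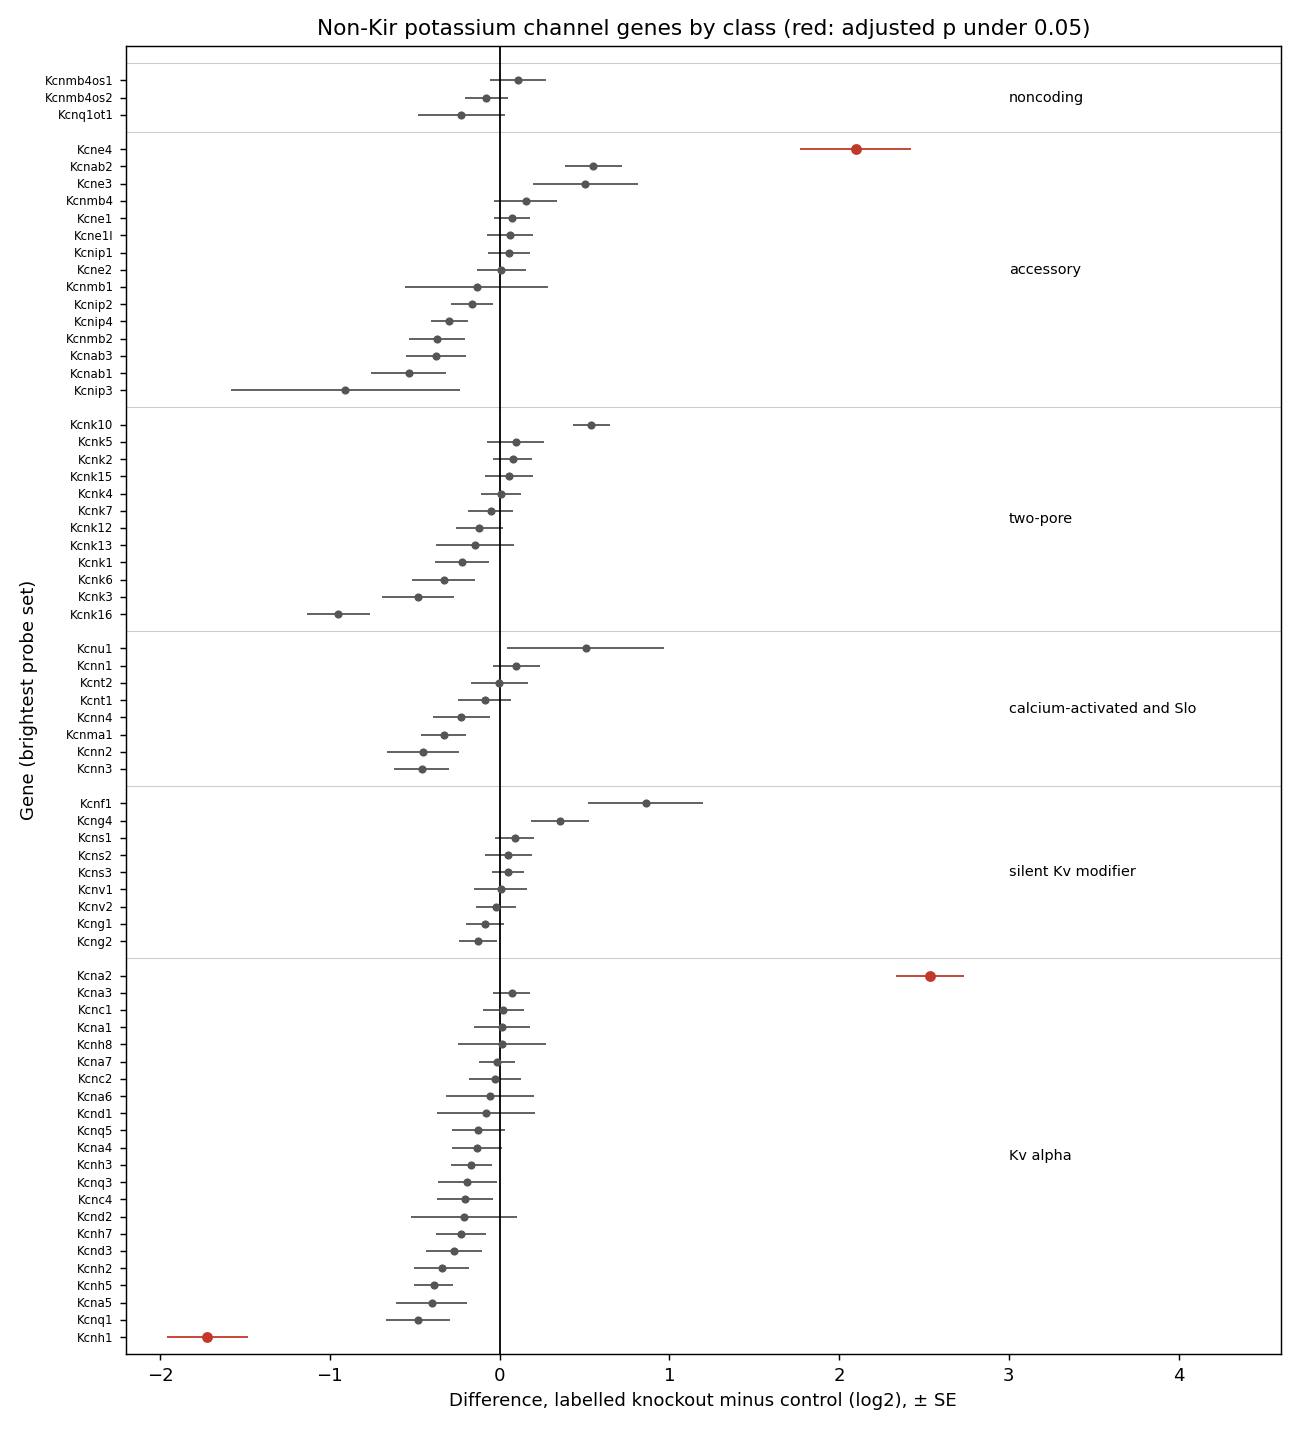
Difference in log2 expression between arrays labelled knockout and controls (horizontal axis, bars ± SE) for the brightest probe set of each of the 69 genes, grouped by class, with called genes in red. Kcna2, Kcne4 and Kcnh1 lie past 1 log2 unit, and the remaining 66 lie between -0.95 and 0.86.

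Among tandem-pore genes, the lowest p on the brightest probe set belonged to Kcnk16. It encodes the alkaline-activated TALK channel, which is abundant in islets and contributes to beta cell membrane potential. Kcnk16 read 10.89, 10.40 and 10.57 in controls and 9.98, 9.51 and 9.53 in knockouts. All knockout values were below all control values, and the level was high on every array (percentile 95.6 in controls). The difference of -0.95 ± 0.18 did not pass (adjusted p = 0.0859), and passed with an intensity trend in the variance (adjusted p = 0.0275). Kcnk3, an acid-sensitive TASK channel, read 7.59, 7.10 and 6.84 in controls and 6.57, 6.60 and 6.92 in knockouts, with overlap (-0.48 ± 0.21, adjusted p = 0.401). Kcnk1, the TWIK channel, overlapped too (-0.22 ± 0.16, adjusted p = 0.616). Kcnk6 showed no overlap (-0.33 ± 0.18, adjusted p = 0.513) at a dim level, percentile 22.6 in controls. Kcnk2, the TREK relative of Kcnk10, stood at percentile 3.60 in controls and differed by 0.078, and Kcnk12, a silent channel, differed by -0.12. On their brightest probe sets Kcnk4, Kcnk5, Kcnk7, Kcnk13 and Kcnk15 overlapped, with differences between -0.15 (Kcnk13) and 0.094 (Kcnk5). Of the 12 tandem-pore genes 0 were called on their brightest probe set, and 2 (16.7%) had an unadjusted p under 0.05, near the 14% of all genes.

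Calcium-activated channels had 0 calls of 8 with limma, with 2 (25%) at an unadjusted p under 0.05 against 14% of all genes, and 6 of the 8 had lower means against 49.6% of all genes. Kcnma1, the large-conductance BK channel, read 9.23, 9.10 and 9.18 in controls and 8.62, 9.02 and 8.88 in knockouts. Its groups did not overlap on that probe set, but the difference of -0.33 ± 0.13 did not pass (adjusted p = 0.362). Its other probe sets, from brighter to dimmer, differed by -0.014, -0.23, -0.69 and 0.22, each with overlap. Among the small-conductance genes, Kcnn3 read 7.48, 6.98 and 7.17 in controls and 6.69, 6.93 and 6.63 in knockouts (-0.46 ± 0.16, adjusted p = 0.308), again without overlap and without a call. Kcnn2 (-0.45 ± 0.21, adjusted p = 0.434), Kcnn4, the intermediate-conductance channel (-0.23 ± 0.17), and Kcnn1 (0.099 ± 0.137) overlapped. Kcnu1, a pH-gated channel known from sperm, had 1 low control (6.68, 6.23 and 4.78 in controls, 6.68, 6.14 and 6.39 in knockouts) and differed by 0.51 ± 0.46 (adjusted p = 0.705). Kcnt1 and Kcnt2, the sodium-activated members, differed by -0.088 and -0.0014.

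**Figure D3:**
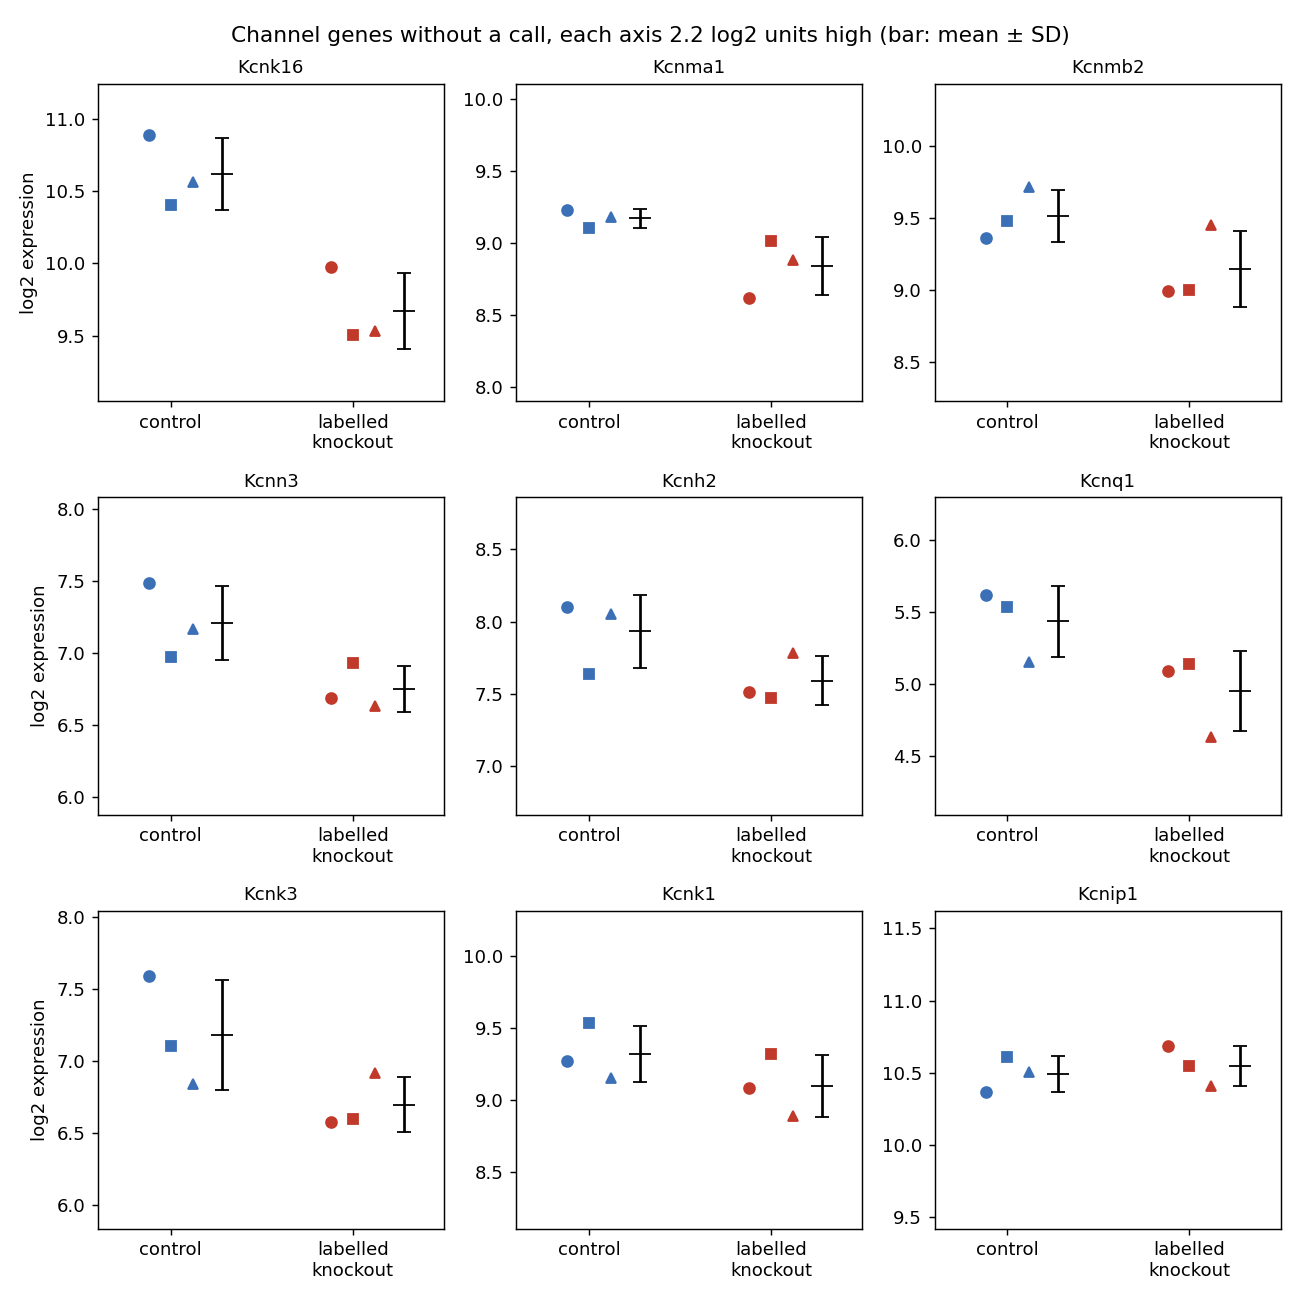
Log2 expression by array (vertical axis, each panel 2.2 log2 units high) for 9 channel genes without a call, controls in blue, arrays labelled knockout in red, with circles, squares and triangles for arrays 1, 2 and 3 and bars for mean ± SD. Kcnk16 shows the widest gap. Groups are also apart for Kcnma1, Kcnn3 and, narrowly, Kcnq1, and overlap for Kcnmb2, Kcnh2, Kcnk3, Kcnk1 and Kcnip1.

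Of the 15 accessory genes 1 was called, Kcne4, and 4 (26.7%) had an unadjusted p under 0.05, against 14% of all genes. Kcnmb2, the BK subunit that adds inactivation, read 9.36, 9.48 and 9.71 in controls and 8.99, 9.00 and 9.45 in knockouts (-0.37 ± 0.17, adjusted p = 0.421), with overlap through knockout 3. Its second probe set differed by 0.084. Kcnmb4, a neuronal BK subunit, differed by 0.15 ± 0.19. Kcnip4, which binds A-type channels, was lower without overlap on its brightest probe set (-0.30 ± 0.11, adjusted p = 0.331). Its other probe sets differed by -0.49 and -0.12, with overlap. Kcnip1, a relative with strong signal (percentile 95.1 in controls), read 10.36, 10.61 and 10.50 in controls and 10.68, 10.55 and 10.41 in knockouts, a difference of 0.055 ± 0.123. Kcnip2 differed by -0.16 ± 0.13. No member of this group of channel-interacting proteins passed.

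Silent modifiers had 0 calls of 9 with limma and 1 (11.1%) at an unadjusted p under 0.05, against 14% of all genes. That 1 was Kcnf1, with values of 5.10, 5.14 and 4.67 in controls and 5.06, 6.00 and 6.43 in knockouts. Knockout 1 lay within the control range (0.86 ± 0.34, adjusted p = 0.356). The second Kcnf1 probe set differed by 0.12. Kcng4 (0.35 ± 0.17), Kcng2 (-0.13 ± 0.11) and Kcns1 (0.090 ± 0.115) did not pass. Kcng1, Kcns2, Kcns3, Kcnv1 and Kcnv2 differed by -0.083 (Kcng1) to 0.052 (Kcns2) on their brightest probe sets. The noncoding transcripts did not pass: Kcnq1ot1, the imprinted antisense RNA of the Kcnq1 locus, differed by -0.23 ± 0.26, Kcnmb4os1 by 0.11 ± 0.16 and Kcnmb4os2 by -0.078 ± 0.126.

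Several members varied between arrays of 1 group more than between groups. Kcnd2 read 4.20 in control 1 but 3.03 and 3.02 in controls 2 and 3, where acinar signal was strongest, and 3.19, 3.17 and 3.26 in knockouts. Its difference of -0.21 (adjusted p = 0.833) became 0.18 without control 1 and -0.78 once the acinar level was a covariate (adjusted p = 0.424). With control 1 as the only control it was -0.99 (adjusted p = 0.116). Kcne3 likewise was highest in control 1 (7.09, against 5.83 and 6.08 in controls 2 and 3) and read 6.92, 6.90 and 6.71 in knockouts. Its difference of 0.51 ± 0.31 (adjusted p = 0.552) became 0.88 without control 1 (adjusted p = 0.0442), and was -0.0028 with the acinar covariate and -0.25 against control 1 alone. Kcnmb1, the BK subunit of smooth muscle, ran the other way on its brightest probe set, with 6.02, 7.74 and 7.09 in controls. Its knockouts read 7.00, 7.04 and 6.42. The difference of -0.13 became 0.61 with the covariate and 0.80 against control 1 alone. The second Kcnmb1 probe set, about as bright, read 6.63, 7.57 and 6.72 in controls, with control 1 close to control 3. It read 6.71, 6.58 and 6.17 in knockouts (-0.49). Kcnip3, a calcium sensor of A-type channels, had the widest range of all members, 3.82 to 6.51 within the knockouts (-0.91 ± 0.67, adjusted p = 0.632). Its dimmer probe set ranged from 4.27 to 4.75 there. Whether acinar RNA plays a part in these values was not tested beyond the covariate.

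**Figure D4:**
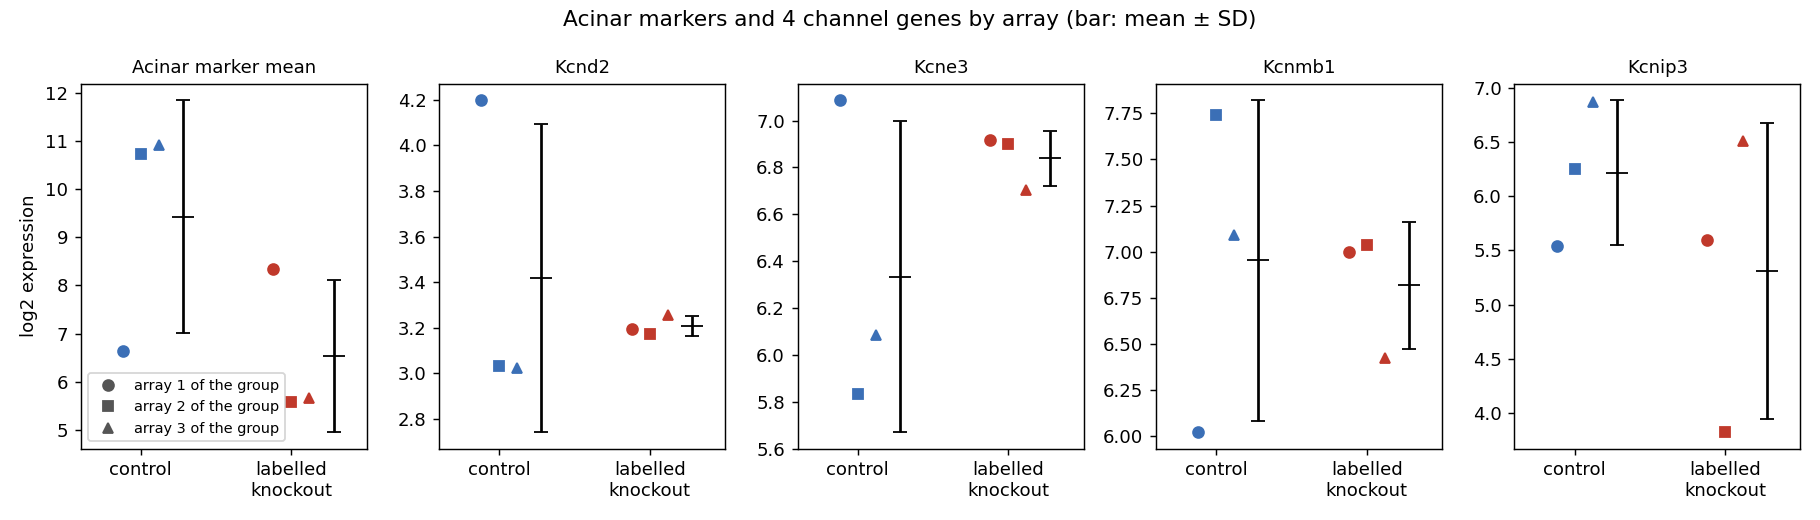
Mean log2 value of 24 acinar markers and log2 expression of Kcnd2, Kcne3, Kcnmb1 and Kcnip3 by array (vertical axes differ), controls in blue, arrays labelled knockout in red, bars for mean ± SD. Each gene is shown on its brightest probe set. Control 1 (blue circle) stands apart from controls 2 and 3 in the acinar mean, Kcnd2, Kcne3 and Kcnmb1.

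Across the 69 members, 12 (17.4%) had groups that did not overlap, 4 with knockouts above controls and 8 with knockouts below. Over all genes 21.2% did not overlap, 12.1% above and 9.06% below. Many members were dim: 46 of 69 had a control mean below the median probe set, and 41 had both group means below it. These counts describe the list and carry no test.

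Of 24 genes listed as channel partners, 21 were measured and 0 were called by limma, with 4 (19%) at an unadjusted p under 0.05 against 14% of all genes. The lowest p was that of Cntnap2, which clusters Shaker channels beside nodes of Ranvier, with 9.22, 8.67 and 8.62 in controls and 8.05, 7.80 and 8.00 in knockouts (-0.89 ± 0.18, adjusted p = 0.0955, and 0.0442 with an intensity trend). Its groups did not overlap. Dpp6, a partner of A-type channels (-0.51 ± 0.19, adjusted p = 0.338), and the calcium channel gene Cacna1c (-0.35 ± 0.14, adjusted p = 0.372) followed without passing. Kcnj11, the pore of the ATP-sensitive channel, differed by 0.028 ± 0.158 (adjusted p = 0.964).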

How the data were processed

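RNA of 6 islet preparations was measured on 1-colour Affymetrix arrays. The deposited values are log2 expression per probe set, made by the authors with RMA, which is named in the submitters' processing notes; aligner, build and version are not given in the sources used here. Of 45101 probe sets, 64 manufacturer controls were left out. Names came from the platform annotation (34945 probe sets with 1 symbol, 932 with several, 9160 with none), and all 69 members matched the RefSeq table by gene identifier. The groups were fitted in limma 3.58.1 under R 4.3.3 (group as the only term, two-sided), with Benjamini-Hochberg adjustment over 45037 probe sets. The fit was tested on simulated data with independent noise for each probe set. Shifts shared by many genes, such as the acinar signal, were not simulated. RMA values carry no detection calls, dim levels are compressed, and 3 arrays per group limit the precision. Percentiles are ranks among all probe sets. Genes were named by rule: members with any called probe set, the 4 lowest p per class, known islet channels, the 5 widest ranges within a group and the 3 lowest-p partners, plus relatives named in passing after their values were seen. Members, lists, rule and alternatives, the acinar ones included, were chosen with earlier results of these data known. The test of the gap between the Kcnk10 probe sets and the promoter motifs searched were chosen after values were seen.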

Additional observations from a re-analysis of the deposited data

How the results depend on the processing

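The 2 rises and the 1 fall were counted again under 15 alternatives. Leaving out 1 array gave 1 to 2 rises and 0 to 1 falls, and Kcna2 was called in all 6 of those fits; without control 1 the second rise was Kcne3. The replicate block gave 1 rise and 0 falls. The deviations of same-numbered arrays correlated at -0.054, 0.14 and 0.0045. The largest correlations with other numbers were 0.10, -0.0033 and 0.081. With 3 arrays per group these values cannot decide whether same-numbered arrays were paired. The acinar covariate also gave 1 rise and 0 falls, and leaving out controls 2 and 3 gave 0 rises and 0 falls. An intensity trend gave 2 falls, Kcnh1 and Kcnk16. With probe sets at or above the median level only, the median difference was -0.20 over the 25 members left; this filter reads all 6 arrays, so Kcna2 and Kcne4, dim in controls, passed it through the arrays where they were higher. The median otherwise lay between -0.12 and -0.025. Over all probe sets 404 were called, 152 to 783 without 1 array, 246 with the replicate block, 132 with the acinar covariate, 54 without controls 2 and 3, 887 with an intensity trend and 333 of 18193 with 1 probe set per gene. Without controls 2 and 3 a single control remains, which is assumed to vary like the other arrays.

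Differences of uncalled members changed sign in these fits. With the acinar covariate Kcne3 gave -0.0028, Kcnmb1 0.61 and Kcns1 -0.059. Without controls 2 and 3 Kcne3 gave -0.25, Kcnmb1 0.80, Kcnq1ot1 0.22, Kcns1 -0.066 and Kcnu1 -0.28. Leaving out 1 array took 26 of the 69 members across 0. Of the 37 members named by rule, 8 did so (0 of the 3 called), with ranges of -0.020 to 0.11 (Kcnc1), -0.41 to 0.18 (Kcnd2), -0.60 to 0.26 (Kcnmb1), -0.018 to 0.32 (Kcnmb4), -0.015 to 0.22 (Kcnmb4os1), -0.17 to 0.016 (Kcnmb4os2), -0.027 to 0.20 (Kcnn1) and -0.053 to 0.90 (Kcnu1). The cause was not tested.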
